A study of Mus musculus with 386 samples.

Results

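Mouse oocytes of postnatal day 2.5 (P2.5) were compared, gene by gene, with female germ cells of embryonic day 17.5 (E17.5). It took every P2.5 library and 10 of the 22 E17.5 libraries, together 327 of the 386 libraries in the series. The E17.5 libraries were those numbered 11 to 22 in the labels except 15 and 16. Libraries 1 to 10 held at least 1646 CPM (counts-per-million) of mast cell markers and libraries 15 and 16 only 246.6 and 705 CPM of germ cell markers, so leaving them out rested on measured marker levels. The series collected single female germ cells of these stages and of P6.5 to follow gene regulation as oocytes in primordial follicles take different fates, per its title. RNA with a poly(A) tail was copied and amplified with Smart-seq2, a full-length single-cell method, and sequenced in paired reads. No source used here says how the cells were isolated. The labels give the stage of each library and name no strain, animal, litter or pool. Each stage was therefore 1 sample of many cells, no test was possible, and the ranges below describe the spread between cells, not between animals. Below, "before birth" and, unless other libraries are named, "E17.5" stand for the 10 compared libraries, and "after birth" for the P2.5 cells.

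In the mouse ovary, germ cells enter meiosis before birth, and by late gestation they pair and recombine their chromosomes in meiotic prophase. Around birth the germ cell clusters break apart, and each surviving oocyte arrests in prophase inside a primordial follicle. The arrested oocyte then turns on the genes of the egg coat, of maternal storage complexes and of signalling to the cells around it, under transcription factors such as NOBOX, FIGLA, LHX8 and SOHLH1.

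The level of a gene is given in CPM, either in the summed counts of a stage or in each cell. Among the P2.5 libraries 24 pairs differed little more than repeat counts of 1 cell would (median chi-square per gene 0.686 to 1.03, against 35.9 in pairs drawn at random), so each pair was counted as 1 cell. Libraries held 1914052 to 10283446 counts before birth and 435560 to 23982709 after birth, with 15374 to 16834 and 9607 to 19526 genes with a count. A gene with no count in the 10 E17.5 libraries could have stood at up to 0.0493 CPM of their sum (3 counts, a limit that covers counting only). Counts per count of external spike-in RNA had a median of 86.1 before birth and 465 after birth, and 97.95% of P2.5 cells exceeded all 10.

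The label of germ cells free of other cells held in part. Germ cell markers (Ddx4, Dazl, Mael, Taf4b, Sycp3 and Dppa3, summed) ran from 1175 to 4693 CPM in the 10 E17.5 libraries, with the lowest value in library 18. Markers of granulosa and pregranulosa cells, the supporting cells of the follicle, stood at 2187 and 1418 CPM in libraries 18 and 19 and at 26.4 to 198.2 CPM in the other 8. Erythroid markers, mostly globins, were present in all 10 libraries at 217.9 to 5886 CPM. The mast cell list stood at 27.6 to 240.2 CPM, mostly Gata2 except in libraries 14 and 19 (11.3 of 38.7 and 9.6 of 40.7 CPM), while the mast cell protease genes Cma1 and Tpsb2 were at 3.29 and 0.48 CPM of the sum and Mcpt4 and Fcer1a at 0. After birth, 2002 to 7680.0 CPM of germ cell markers were found, and 250 cells held less than 100 CPM of each of the 7 other marker lists.

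**Figure D1:**
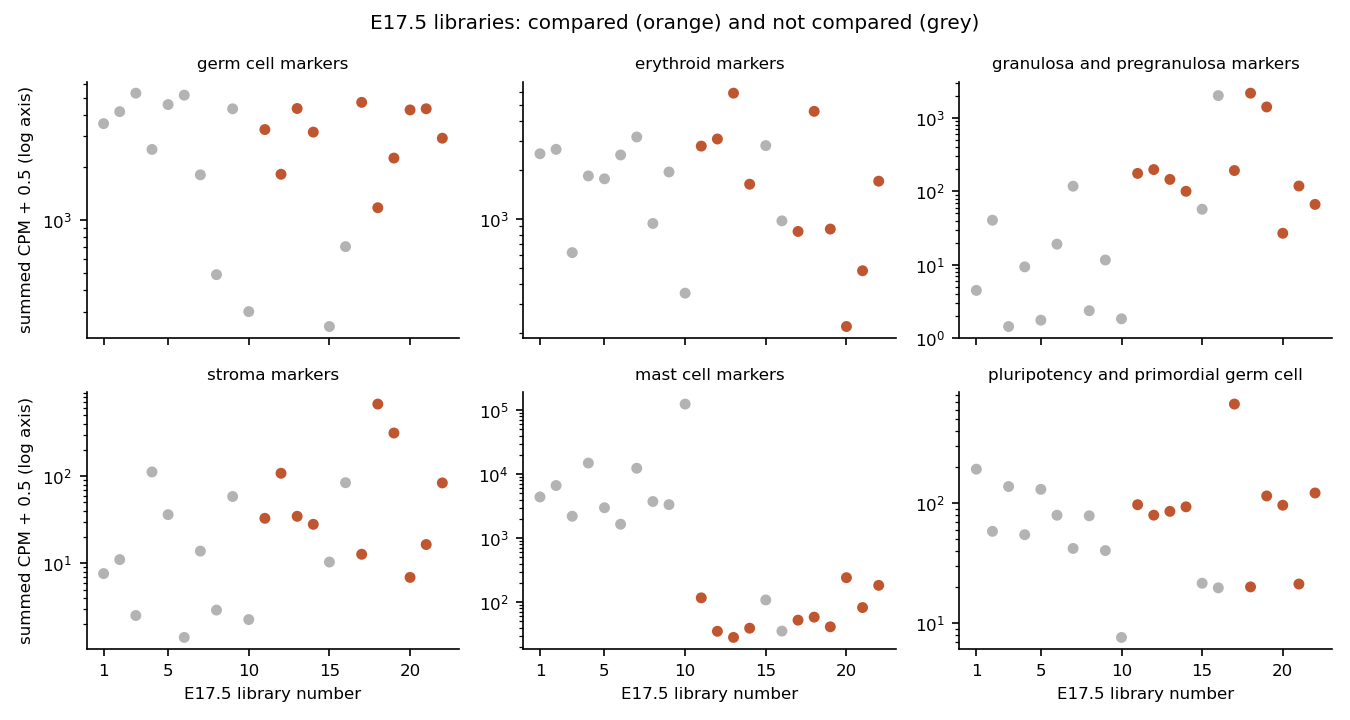
Summed level (CPM + 0.5, log axis) of 6 gene lists in each of the 22 E17.5 libraries, with the library number on the x axis, the 10 compared libraries in orange and the other 12 in grey. Libraries 1 to 10 lie at 1646 CPM or more of mast cell markers, and libraries 18 and 19 are the highest of the compared ones in granulosa and stroma markers.

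Of 16948 measured genes (those reaching 1 CPM in the sum of 1 stage or both and detected in 3 cells or more), 4513 (26.6%) were at least 2-fold higher after birth and 5488 (32.4%) at least 2-fold lower. By gene type, matched by symbol, 13484 protein-coding genes were nearly balanced, with 27.5% higher and 27.7% lower. Processed pseudogenes (1010) had 10.8% higher and 45.7% lower, and lincRNA genes (674) 43.8% and 41.1%. The shares over all genes given below cover every gene type. Ratios are log2 of the P2.5 over the E17.5 level after adding 0.5 CPM to both, a scale that understates the difference of genes at low levels. A stricter description asked whether a gene was separated, that is, whether at least 95% of P2.5 cells lay above the highest or below the lowest of the 10 E17.5 libraries. By this rule 599 genes (3.53%) were separated and higher after birth, and 422 (2.49%) were separated and lower. The higher set stood at a median of 0.543 CPM before birth and 86.2 CPM after birth, and 35.2% of its genes had no count in any of the 10 E17.5 libraries. The lower set stood at a median of 11.9 CPM before birth and 0.182 CPM after birth.

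With all 22 E17.5 libraries these shares were 1.43% and 0.718%, and against libraries 1 to 10 alone 2.79% and 2.97%. Adding libraries can only widen the E17.5 range and lower such a share. Over all measured genes the log2 ratio had a median of −0.20, which shifted up by 0.44 under TMM, by 0.41 under median-of-ratios, by 0.20 in deposited FPKM and by 2.43 under spike-in scaling. A gene lower after birth in CPM, with a log2 ratio between −2.43 and 0, was therefore higher per spike-in count. A gene that reached 1 CPM in 1 stage alone was measured because of its level there, so counts that include such genes are descriptions only. List medians marked as relative are given relative to the median of all genes, and each scaling by a factor per stage moves every gene alike and leaves them in place.

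**Figure D2:**
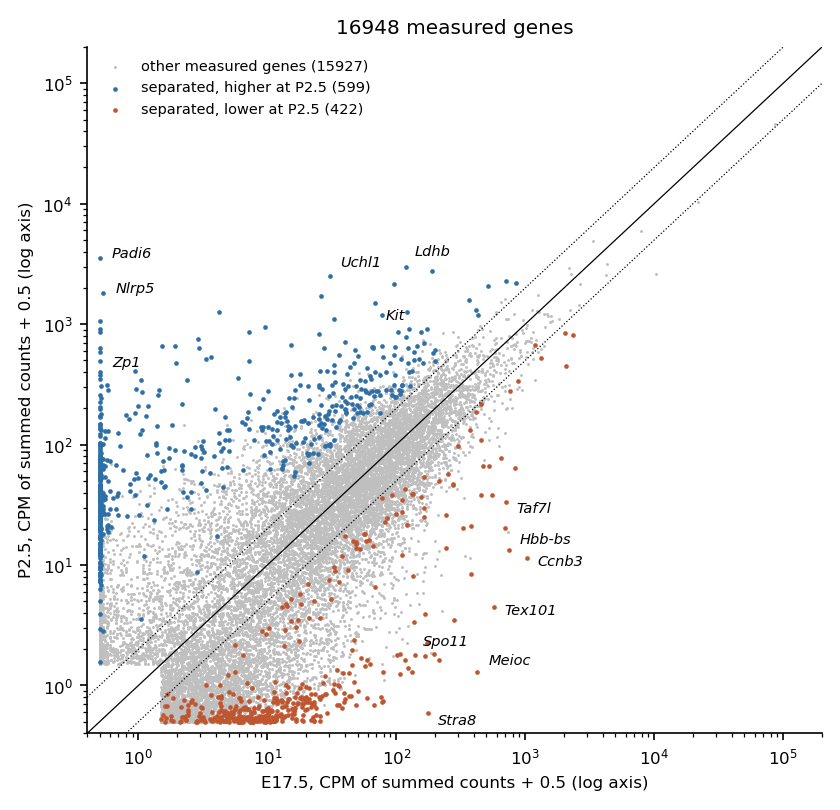
CPM of summed counts + 0.5 of each measured gene before birth (x) and P2.5 (y), both on log axes, with equal levels as a solid line and 2-fold differences as dotted lines. The 599 genes separated and higher after birth (blue) include a column at 0 counts before birth, and the 422 separated and lower genes (orange) have a median of 0.182 CPM after birth.

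The subcortical maternal complex is stored by the egg at its margin for the early embryo, and the list taken for it includes related oocyte Nlrp genes. Of its 13 genes 11 were measured, 8 of them only through the P2.5 level, and these 11 were at least 2-fold higher after birth (26.6% of all genes), with 7 separated (3.53% of all genes). Nlrp2 and Nlrp9c did not reach 1 CPM at either stage. The 3 measured in both stages were Tle6, Zbed3 and Ooep. Padi6, which is needed for the cytoplasmic lattices of the oocyte, had no count in any of the 10 E17.5 libraries. After birth its lowest, median and highest cells stood at 89.3, 2815 and 12293 CPM, so every P2.5 cell lay above every E17.5 library. Its level in the sum was 3567 CPM, at least 72275-fold higher than the E17.5 limit. In GENCODE release M21 (GRCm38, the assembly also called mm10), matched by symbol, the gene lies at chr4:140727355-140742643 (minus strand), Nlrp5 at chr7:23385889-23441922 (plus strand), Zp1 at chr19:10914287-10920632 (minus strand), Tbpl2 at chr2:24071721-24096595 (minus strand) and Stra8 at chr6:34920163-34939344 (plus strand).

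Nlrp5 (also called Mater), a core member of the complex, had 2 counts before birth, both in library 22 (0.290 CPM). Its P2.5 cells ran from 4.53 through a median of 1545 to 6819 CPM, again without overlap with the 10 compared libraries (library 7, not compared, held 4.92 CPM). Its log2 ratio was 11.74, and without the added 0.5 CPM it was 15.75, with a counting interval of 13.90 to 18.80 that is wide because of the 2 counts. The P2.5 cell lowest in Nlrp5, at 4.53 CPM, held 5711 CPM of Padi6. Tle6, another core member, was already present before birth at 1.69 to 84.1 CPM (median 22.5) and stood at a median of 1524 CPM after birth (log2 ratio 6.03). Zbed3, a partner that positions the complex, went from a median of 7.17 to 759.5 CPM, and Ooep, an RNA-binding member, from 0.0527 to 337 CPM. Both groups of cells stayed apart for these 3 genes. Khdc3 (Filia), which guards genome stability in the embryo, reached only 13.1 CPM in the P2.5 sum. Nlrp14 and Nlrp4f, oocyte genes of the same family, had no count before birth and stood at 916 and 868 CPM after birth. Close copies in the Nlrp family can share reads, so the split between them is uncertain.

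**Figure D3:**
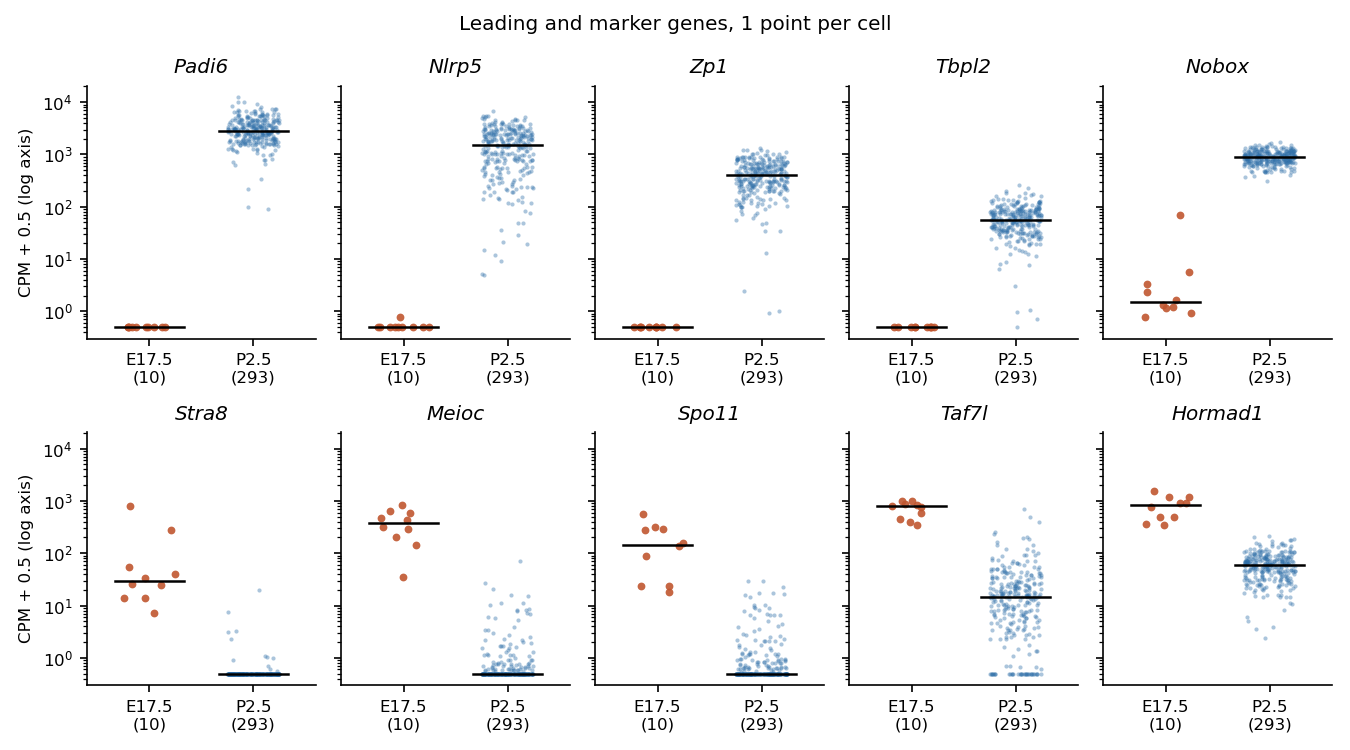
CPM + 0.5 (log axis) of 10 genes in the 10 E17.5 libraries (orange) and the P2.5 cells (blue), 1 point per cell, with the median as a bar. Padi6, Zp1 and Tbpl2 have no count before birth, and Stra8, Meioc and Spo11 have a P2.5 median of 0.

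Of 7 egg coat (zona pellucida) genes in the files, 6 were measured, 5 of them, which had no count before birth, only through the P2.5 level. The 6 were at least 2-fold higher after birth (26.6% of all genes) and 4 were separated (3.53% of all genes), while Oosp3 did not reach 1 CPM at either stage. Summed over the list, the E17.5 libraries held 0 to 31.3 CPM and the P2.5 cells 69.7 to 6146 CPM. Zp1, which links the filaments of the coat, had no count before birth and ran from 0.412 through 397 to 1349 CPM after birth, at least 9966-fold higher in the sum. The 2 P2.5 cells lowest in Zp1, at 0.412 and 0.532 CPM, were also the 2 lowest in Padi6, at 96.5 and 89.3 CPM, and held 1329 and 1729 CPM of Nlrp5. Zp2, a filament protein of the coat, likewise had no count before birth and stood at 1052 CPM after birth. Zp3, the filament partner of Zp2, was the member with E17.5 counts, at 31.3 CPM in library 19 and a median of 0.244 CPM, against a P2.5 median of 577 CPM. Astl (ovastacin), the protease that later cleaves ZP2, had no count before birth and 142.1 CPM after birth. Oosp1 and Oosp2, secreted oocyte proteins, were at 1.16 and 2.98 CPM after birth with no count before birth, and 30.4% and 68.3% of P2.5 cells held a count.

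Of 36 secreted factors and other genes of oocyte growth 30 were measured, 25 of them only through the P2.5 level. Those at least 2-fold higher after birth were 29 (26.6% of all genes), 18 were separated (3.53% of all genes) and 1 was lower. Gdf9, a TGF-beta family ligand that drives follicle growth, ran from 0 to 1.89 CPM before birth (median 0.472) and had a P2.5 median of 336 CPM (log2 ratio 8.76). Its partner ligand gene Bmp15 had no count before birth and stood at only 17.4 CPM after birth, and 85.3% of P2.5 cells lay above E17.5. Kit, the receptor through which granulosa cells signal to the oocyte, stood at 12.6, 33.96 and 184.8 CPM before birth (lowest, median, highest) and at 191.8, 1416 and 2849 CPM after birth. The lowest P2.5 cell lay above the highest of the 10 compared E17.5 libraries. In libraries 1 to 10, which were not compared, Kit ran from 75.9 CPM (library 6) to 3611 CPM (library 10). Library 10 thus lay above the highest P2.5 cell. Libraries 1 to 10 also held mast cell markers, whose part in Kit was not tested. Gja4 (connexin 37), the gap junction channel between oocyte and granulosa cells, did not overlap with the 10 compared libraries either. It stood at 2.09 CPM in the highest of them and at 41.6 CPM in the lowest P2.5 cell. Libraries 3 and 9, which were not compared, held more Gja4 than that cell, though less than the P2.5 median.

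Uchl1, a ubiquitin hydrolase abundant in oocytes, went from a median of 9.44 to 2528 CPM. H1foo, the oocyte linker histone, and Npm2, a histone chaperone of the egg, stood at 223.3 and 180.6 CPM after birth, with 0 counts and 1 count before birth. The oligoadenylate synthetase copies Oas1h and Oas1c, members of an antiviral enzyme family, were at 350.3 and 281.3 CPM after birth against 0 and 0.0822 CPM, and reads may be split between such copies. Mfge8, a secreted adhesion protein, was the member that was lower after birth, at 31.2 against 102.7 CPM with overlapping cells, and it was higher per spike-in count (log2 ratio 0.73).

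The oocyte transcription factor list had 8 of 14 measured members at least 2-fold higher after birth (26.6% of all genes) and 2 lower (32.4% of all genes). Its median was 1.64 relative to all genes, and 1 member was measured only through the P2.5 level. Nobox, a homeobox factor required for the primordial follicle oocyte, stood at 0.292, 1.005 and 68.5 CPM before birth and at 303.8, 889 and 1748 CPM after birth. Lhx8, a LIM homeobox factor, went from a median of 0.297 to 504 CPM, with 70.5 CPM in E17.5 library 11 (log2 ratio 7.19, or 8.51 without it) and at most 5.95 CPM in the other 9. Sohlh1, a basic helix-loop-helix factor of early oocytes, went from 4.97 to 834 CPM, and Figla, which activates the zona genes, from 18.3 to 399 CPM. No P2.5 cell overlapped the 10 compared E17.5 libraries in these 4 genes. Library 3, which was not compared, held 632 CPM of Lhx8, above its P2.5 median. In E17.5 libraries 1 to 10, which were not compared, Nobox reached 165.6 CPM of the sum against 9.015 CPM in the 10 compared. Sohlh2, the partner of SOHLH1, had a log2 ratio of −0.62, which was positive per spike-in count, and Foxo3, which holds primordial oocytes dormant, stood at 66.5 and 148.6 CPM with 43.3% of P2.5 cells above E17.5.

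Tbpl2 (also called TRF3), which replaces the general TATA-binding protein in oocytes, had no count before birth. Its P2.5 cells ran from 0 through 56.4 to 265.1 CPM, and 1 cell had no count. Sequences 250 bases upstream of the RefSeq starts of 3 genes of the higher set are printed below to show E-boxes, the letters read by basic helix-loop-helix factors such as FIGLA and SOHLH1. The build is GRCm38.p6, the sequences run 5′ to 3′ on the gene's strand, and capitals mark CANNTG, searched on both strands.
Padi6: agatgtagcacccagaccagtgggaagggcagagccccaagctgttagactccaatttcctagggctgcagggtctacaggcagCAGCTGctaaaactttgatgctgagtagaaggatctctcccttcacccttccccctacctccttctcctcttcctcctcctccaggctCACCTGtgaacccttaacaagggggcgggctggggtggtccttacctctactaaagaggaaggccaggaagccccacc
Zp3: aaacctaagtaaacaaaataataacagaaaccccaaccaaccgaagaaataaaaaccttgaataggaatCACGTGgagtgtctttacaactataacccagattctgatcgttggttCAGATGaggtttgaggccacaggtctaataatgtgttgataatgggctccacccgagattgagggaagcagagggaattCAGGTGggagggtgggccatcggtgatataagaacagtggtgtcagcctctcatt
Tbpl2: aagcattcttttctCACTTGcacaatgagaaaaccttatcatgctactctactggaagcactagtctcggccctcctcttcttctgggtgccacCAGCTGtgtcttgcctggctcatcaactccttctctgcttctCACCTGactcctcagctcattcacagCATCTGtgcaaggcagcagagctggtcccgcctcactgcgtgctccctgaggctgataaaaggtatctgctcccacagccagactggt
The Padi6 window is chr4:140742644-140742893 (minus strand), that of Zp3 chr5:135979855-135980104 (plus strand) and that of Tbpl2 chr2:24096596-24096845 (minus strand). They hold 2, 3 and 4 E-boxes, and 1 of those in Zp3 reads CACGTG, a form that 6.02% of all windows hold. Such a match is common, since 66.2% of all 32851 promoter windows of this length in the table hold at least 1 E-box. Of the 599 separated and higher genes 429 were matched to 552 windows, of which 69.6% hold one, and the windows of measured genes do so in 58.9%.

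Genes that hold the oocyte in prophase arrest or serve its later divisions were mostly higher or within 2-fold. Of 25 measured members 11 were at least 2-fold higher after birth (26.6% of all genes) and 2 were lower (32.4% of all genes). Of the 25, 4 were measured only through the P2.5 level, and the list median was 0.90 relative to all genes. Wee2, the oocyte kinase that keeps CDK1 inactive, went from a median of 0.187 to 121.1 CPM, and Mos, the kinase that later holds the egg in its second arrest, from 0 to 47.1 CPM. Pde3a, the phosphodiesterase that breaks down cyclic AMP when arrest ends, had no count before birth and 37.6 CPM after birth. Gpr3, the receptor that keeps cyclic AMP high, stood at 0.559 and 24.96 CPM, with 89.8% of P2.5 cells above E17.5. Fzr1, the activator that keeps the cell cycle ubiquitin ligase on in arrest, had 99.7% of P2.5 cells above every E17.5 library, at 13.3 to 174.9 CPM and 152.2 to 1098 CPM. Ccnb3, a cyclin of meiotic cells on chromosome X, went the other way, from 92.2, 713 and 4422 CPM before birth to 0, 4.42 and 86.7 CPM after birth. Every P2.5 cell lay below the 10 compared E17.5 libraries, and library 6, which was not compared, held 30.7 CPM.

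Genes of meiotic entry were lower after birth in CPM, with 11 of 14 measured members at least 2-fold lower (32.4% of all genes), 3 of them separated (2.49% of all genes), and 1 higher. Of the 14, 4 were measured only through the E17.5 level. The list median was −1.58 relative to all genes, and scaled to spike-ins 4 members were at least 2-fold lower and 4 higher. Stra8, the retinoic acid target that starts meiosis, stood at 6.61, 29.3 and 809 CPM in the lowest, median and highest E17.5 library and at a median of 0 after birth. The highest value was in library 17, and library 21 came next with 276.7 CPM. A Stra8 count was found in 4.10% of P2.5 cells, and 99.3% of P2.5 cells lay below every E17.5 library. The P2.5 sum of 0.0952 against 173.99 CPM gave a log2 ratio of −8.20, which was −6.59 without library 17. Meioc, which keeps the meiotic programme running by clearing mitotic transcripts, stood at 34.5, 374 and 837 CPM before birth. Its P2.5 median was 0 and its highest P2.5 cell 71.8 CPM, so 1 P2.5 cell overlapped the E17.5 range.

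The windows before the RefSeq starts of these 2 genes are shown because these genes had the 2 lowest log2 ratios of the meiotic entry list. Capitals mark AGGTCA, a half-site of nuclear receptors such as the retinoic acid receptors, in Stra8, and TCCCGC, the core letters of E2F sites, in Meioc, each searched on both strands.
Stra8: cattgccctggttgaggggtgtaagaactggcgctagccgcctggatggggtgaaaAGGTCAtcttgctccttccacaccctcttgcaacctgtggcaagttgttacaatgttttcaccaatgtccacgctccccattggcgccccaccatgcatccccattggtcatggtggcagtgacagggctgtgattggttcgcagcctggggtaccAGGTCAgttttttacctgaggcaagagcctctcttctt
Meioc: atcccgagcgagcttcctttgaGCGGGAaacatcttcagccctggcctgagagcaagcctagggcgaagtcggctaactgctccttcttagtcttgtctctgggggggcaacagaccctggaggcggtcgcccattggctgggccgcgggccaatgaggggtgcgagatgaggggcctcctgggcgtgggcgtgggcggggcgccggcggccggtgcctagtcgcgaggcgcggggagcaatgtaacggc
The Stra8 window is chr6:34920698-34920947 and the Meioc window chr11:102665335-102665584, both on the plus strand of GRCm38.p6. GENCODE M21 starts both genes further upstream (Meioc at position 102663716 and Stra8 as given above), so the windows lie inside its gene spans. Stra8 holds 2 AGGTCA sites and Meioc 1 TCCCGC site, and the letters CACGTG are in neither window. AGGTCA is in 14.02% of all windows and TCCCGC in 16.9%, and in the windows of the 422 separated and lower genes (220 matched) 11.2% and 20.97% hold them, against 10.9% and 28.5% in those of measured genes. Windows of Zp1, Zp2 and Spo11 are not shown.

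Msx1, a homeobox factor upstream of Stra8, stood at 5.97, 18.6 and 513 CPM before birth and a median of 0 after birth. Dmrt1, which promotes Stra8 in the fetal ovary, went from a median of 5.67 CPM to 0, and 86.7% of P2.5 cells lay below E17.5. Ythdc2, the RNA-binding partner of MEIOC, was lower in CPM (79.8 and 23.6 CPM) and higher per spike-in count. The retinoic acid receptor gene Rara was the member that was higher, at 4.13 and 12.6 CPM with overlapping cells (log2 ratio 1.503, or 2.49 without library 21).

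Of the synaptonemal complex and chromosome axis genes, 11 of 16 were at least 2-fold lower after birth (32.4% of all genes), 3 separated (2.49% of all genes). In this list 1 gene was higher (26.6% of all genes), and 1 was measured only through the P2.5 level. The list median was −1.98 relative to all genes, but scaled to spike-ins 4 were at least 2-fold lower and 6 higher. Hormad1, an axis protein removed as chromosomes pair, stood at 342, 836 and 1569 CPM before birth and at 1.91, 59.9 and 208.7 CPM after birth, with no overlap. Stag3, the meiotic cohesin subunit, went from a median of 536 to 67.4 CPM, and the row 4930447C04Rik, which encodes the central element protein SIX6OS1, from 733 to 17.8 CPM. Sycp1, the transverse filament, went from 1018 to 307.7 CPM, and its log2 ratio of −1.79 became positive per spike-in count. Sycp3, an axis component, was not lower, with E17.5 libraries at 50.2 to 332 CPM and a P2.5 median of 332 CPM, and Syce1 and Syce2, central element genes, had log2 ratios of 0.49 and 0.48.

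Of the recombination genes 22 of 33 were at least 2-fold lower (32.4% of all genes), 2 of them separated (2.49% of all genes), and 2 were higher (26.6% of all genes). Of the 33, 1 was measured only through the P2.5 level and 1 only through the E17.5 level. The list median was −1.59 relative to all genes. Scaled to spike-ins, 9 were at least 2-fold lower and 15 higher. Spo11, which makes the programmed DNA breaks, stood at 17.9, 145.3 and 563 CPM before birth, and 36.2% of P2.5 cells held a count, with a median of 0. Spata22 and Meiob, which bind single-stranded DNA together, went from medians of 16.6 and 122.9 to 0 and 5.56 CPM. Dmc1, the meiotic strand exchange protein, went from 97.3 to 3.63 CPM, and Hfm1, a helicase of crossover formation, from 366 to 6.41 CPM. Some cells overlapped for Dmc1, where 81.2% of P2.5 cells lay below E17.5. The 2 higher members were Mnd1, a cofactor of strand exchange, at medians of 10.46 and 66.5 CPM, and Swsap1, a recombination cofactor, at 0.122 and 6.71 CPM. The mismatch repair gene Mlh3, which marks late crossovers, had a log2 ratio of −0.05.

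In 4 pairs of related genes the members lay on opposite sides, pairs that were chosen after their values were seen. Ldha and Ldhb encode the subunits of lactate dehydrogenase. Ldhb went from 5.64, 48.7 and 620.4 CPM before birth to 728, 2741 and 8149.9 CPM after birth without overlap, and Ldha from 26.8, 221.9 and 1618 CPM to 0, 16.4 and 321 CPM with overlap. Per length, the deposited mean FPKM of Ldha and Ldhb was 268.7 and 125.4 before birth and 20.4 and 2795 after birth, so the order of these means turned. In CPM, Ldha was highest in E17.5 libraries 12 and 18 (1618 and 996). Library 19 was the only compared one with more Ldhb (620.4) than Ldha (364).

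Taf7l, a germ cell form of a TFIID subunit, stood at 339, 784 and 982 CPM before birth and at 0, 14.2 and 692 CPM after birth, while Tbpl2 began from 0. Sycp2, an axis protein, went from a median of 242.4 to 7.90 CPM, and Sycp2l, its relative in oocytes, from 1 count in 10 libraries to a median of 58.8 CPM. Cdh2 (N-cadherin) had medians of 9.57 and 0.171 CPM. Cdh1 (E-cadherin), which joins oocytes to each other and to their neighbours, had no count in the 10 compared E17.5 libraries and 49.8 CPM after birth. In libraries 5 and 9, which were not compared, Cdh1 stood at 169.5 and 144.1 CPM. Library 19, one of the 2 with granulosa markers, was the highest in Cdh2 at 123.1 CPM, and the part of those cells in Cdh2 was not tested.

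**Figure D4:**
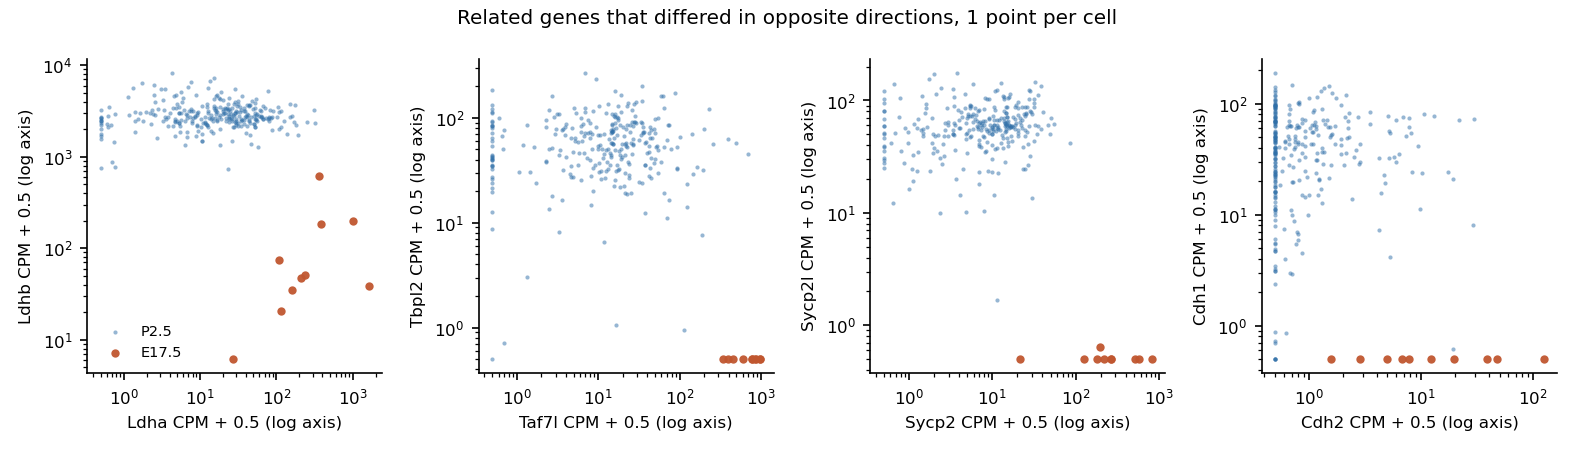
Level of 2 related genes in each cell (CPM + 0.5, both axes log) for 4 pairs, with the 10 E17.5 libraries in orange and the P2.5 cells in blue. The E17.5 libraries lie at the lower right and the P2.5 cells at the upper left, with P2.5 overlap on the x axis for Ldha, Taf7l, Sycp2 and Cdh2.

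Genes of germ cell quality control and death had 5 of 22 members higher and 5 lower, below the shares over all genes (26.6% and 32.4%), with a median of 0.01 relative to all genes. Trp63, whose TAp63 product removes arrested oocytes with DNA damage, stood at 0, 0.0527 and 6.97 CPM before birth and at 42.6, 239.4 and 514 CPM after birth. It had no overlap with the 10 compared libraries, but library 3, which was not compared, held 62.6 CPM. Casp2, a caspase linked to oocyte loss, went from a median of 4.73 to 129.1 CPM. Bbc3 (PUMA), a target of TAp63, went from 28.8 to 0.590 CPM, with some overlap. Chek2, the kinase upstream of TAp63, stood at 42.1 and 92.5 CPM.

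The list of KIT, PI3K, mTOR and FOXO signalling, which sets whether a primordial oocyte stays dormant, had 6 of 25 members higher and 4 lower. Over all genes these shares were 26.6% and 32.4%, and the list median was 0.01 relative to all genes. Deptor, an inhibitor of mTOR, went from a median of 11.4 to 145.7 CPM and 97.3% of P2.5 cells lay above E17.5. Tsc2, a brake on mTORC1, and Eif4ebp1, a translation repressor that mTOR phosphorylates, stood at 73.5 and 52.6 CPM before birth and at 250.5 and 247.1 CPM after birth, with overlapping cells. Rictor, a subunit of mTORC2, was lower in CPM (log2 ratio −1.61) and higher per spike-in count.

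In the DNA methylation list 5 of 13 members were higher (26.6% of all genes), 3 of them separated (3.53% of all genes), and 3 lower (32.4% of all genes). The list median was 0.64 relative to all genes. The 3 separated genes were Zfp57, which guards imprints, Dppa3 (Stella), which shields the maternal genome after fertilisation, and Kdm1b, the demethylase needed to set maternal imprints. Zfp57 went from a median of 0.321 to 278.1 CPM, Dppa3 from 15.99 to 2014 CPM and Kdm1b from 54.5 to 1146 CPM. E17.5 library 17 was apart in Dppa3 at 551 CPM, still below the lowest P2.5 cell at 886 CPM, and without it the log2 ratio was 7.48 in place of 4.49. The de novo methyltransferase gene Dnmt3a had a log2 ratio of 0.55, with overlapping cells. Chromatin modifiers, such as Polycomb and histone methyltransferase genes, had 3 of 24 members higher and 7 lower (26.6% and 32.4% of all genes), none separated.

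The piRNA and germ granule list had 9 of 21 members higher and 7 lower, the latter near the share over all genes (26.6% and 32.4%). Its median was −0.11 relative to all genes. Gtsf1 and Tdrd1, which act in piRNA silencing of transposons, went from medians of 31.4 and 6.01 to 713 and 609 CPM. The log2 ratio of Tdrd1 was 4.51, or 6.07 without library 14. Libraries 3 and 9, which were not compared, held 774 and 686 CPM of Tdrd1, above its P2.5 median. Piwil2 (MILI), a piRNA-binding protein, stood at 136.6 and 512 CPM, with 62.8% of P2.5 cells above E17.5. Ddx4 (the germ cell helicase VASA) stood at 71.5, 530.2 and 1357 CPM before birth and at 18.4, 271.6 and 727 CPM after birth, overlapping, lower in CPM but higher when scaled to spike-ins (log2 ratios −1.28 and 1.15). Dazl, an RNA-binding protein that promotes translation in germ cells, gave the same pattern (log2 ratios −1.07 and 1.36).

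Among genes that store or clear maternal mRNA, 9 of 24 were higher and 5 lower (26.6% and 32.4% of all genes). Of the 24, 3 were measured only through the P2.5 level and 1 only through the E17.5 level. In this list 1 gene was separated and higher (3.53% of all genes). That gene was Lsm14b, a granule protein of oocytes, at medians of 0.0840 and 20.8 CPM. Zar1, which organises stored mRNA in the oocyte, had no count before birth and 26.7 CPM after birth, where its cells ran from 0 to 303.7 CPM. Cpeb1, which controls poly(A) tails of stored mRNA, stood at 228.6 and 847 CPM, with 93.9% of P2.5 cells above E17.5. Pluripotency and primordial germ cell genes had 4 of 15 higher and 6 lower, against 26.6% and 32.4% of all genes, and none separated. Of the 15, 4 were measured only through the E17.5 level and 1 only through the P2.5 level. For Utf1, library 17 alone decided the direction. Library 17 held the highest E17.5 level of Prdm1, a founder factor of germ cells, of Lin28a, a blocker of let-7 miRNAs, of the chromatin protein gene Utf1 and of Klf2. Without it the log2 ratios of Prdm1, Lin28a and Klf2 were 4.43, 4.79 and −1.89 in place of 1.81, 2.57 and −4.29. Without it also the log2 ratio of Utf1 was 0.55 in place of −2.29 and that of Tet1, a 5-methylcytosine oxidase, 0.73 in place of −1.97.

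**Figure D5:**
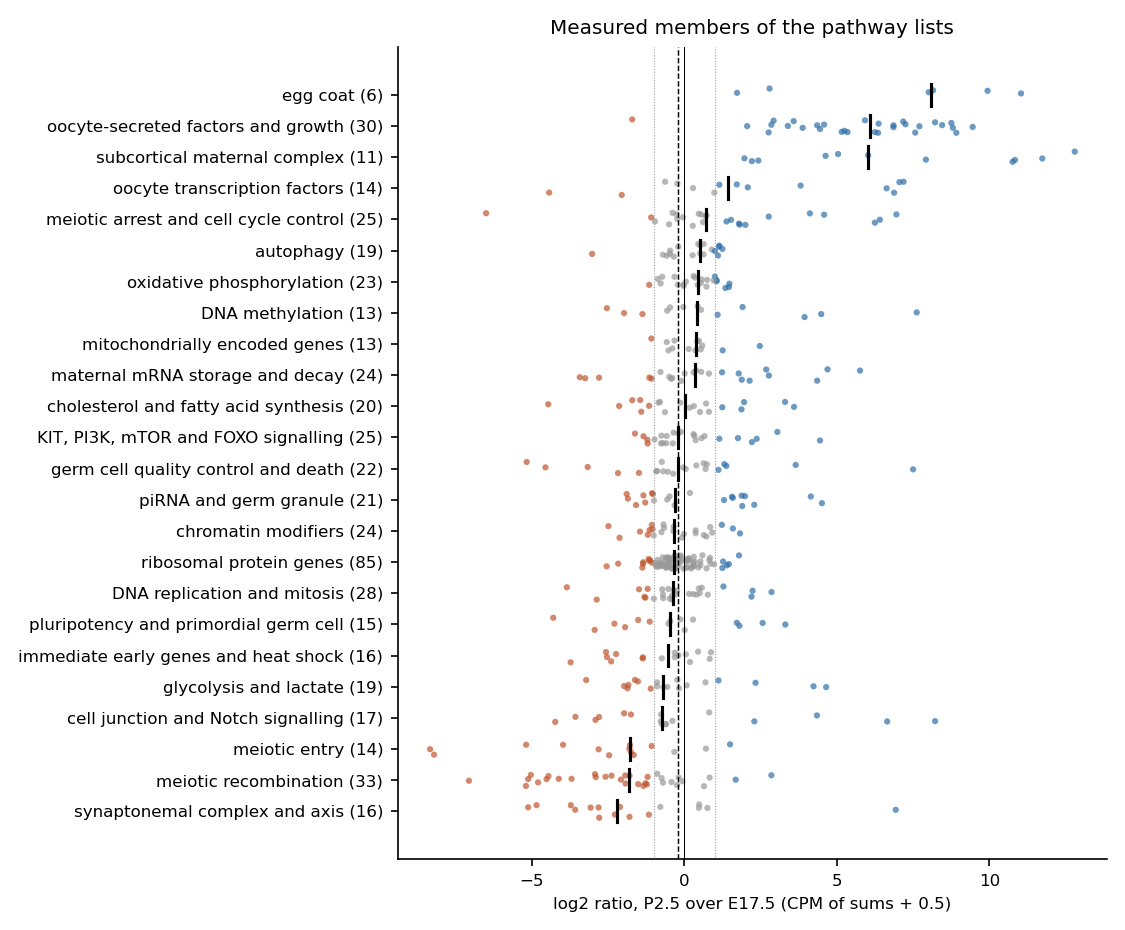
Log2 ratio, P2.5 over E17.5, of each measured member of 24 gene lists (members in brackets), with blue for at least 2-fold higher, orange for at least 2-fold lower and grey between, a bar at each list's median and a dashed line at the median of all genes (−0.20). Egg coat, growth and subcortical maternal complex genes lie to the right and the 3 meiotic lists to the left in CPM, and per spike-in count every point would lie 2.43 further right.

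The counts of the metabolic and housekeeping lists stand beside shares over all genes of 26.6% higher and 32.4% lower, with 3.53% and 2.49% separated. Glycolysis and lactate genes had 4 of 19 members higher and 7 lower (median −0.48 relative to all genes), and Slc16a1, a lactate transporter, stood at 143.9 and 36.4 CPM but higher per spike-in count. Oxidative phosphorylation genes had 6 of 23 higher and 1 lower, and the 1 separated member was Atp5o, an ATP synthase subunit, at 57.7 to 183.6 and 156.6 to 512 CPM. Cholesterol and fatty acid genes had 5 of 20 higher and 6 lower, with Fdft1 (squalene synthase) separated at medians of 64.5 and 649 CPM. Library 3, which was not compared, held 826 CPM of Fdft1. Scd2, a desaturase, was lower at medians of 33.97 and 0.439 CPM. DNA replication and mitosis genes had 4 of 28 higher and 6 lower. Among them Ube2c and Birc5, which act at chromosome separation, were separated and higher (124.3 to 908 and 200.5 to 489.7 CPM), and Top2a, which untangles DNA, was separated and lower (549 to 37.8 CPM). Autophagy had 5 of 19 higher, a share near that of all genes, and ribosomal protein genes 5 of 85 higher and 9 lower. Immediate early and heat shock genes had 0 of 16 higher and 7 lower, with Jun at 10.02, 65.5 and 762 CPM before birth, highest in library 19, and a median of 3.39 CPM after birth.

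Adhesion and Notch genes had 4 of 17 members higher and 6 lower, near the shares over all genes (26.6% and 32.4%), and the 3 separated ones were Gja4, Cdh1 and Jag1, a Notch ligand of the oocyte, at medians of 0.961 and 82.2 CPM. Gja1 (connexin 43), the channel between granulosa cells, went from a median of 11.9 CPM to 0. Its highest E17.5 value, 435 CPM, was in library 19, and the next was 21.9 CPM in library 11. The log2 ratio was −4.23, or −2.20 without library 19.

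Transcripts of other cell types were part of the lower side. Of 12 granulosa and pregranulosa markers 10 were measured, 3 of them only through the E17.5 level. The 10 were at least 2-fold lower after birth (32.4% of all genes), with a plain median log2 ratio of −4.21. Without libraries 18 and 19, 8 were lower with a plain median of −2.48. Against libraries 1 to 10 the plain median was 1.48, with 6 higher and 2 lower, so the direction turned with the E17.5 libraries used. Amhr2, the receptor of anti-Müllerian hormone, had 939 CPM in library 18 and a median of 43.8 CPM over the 10, with a log2 ratio of −4.97, or −3.20 without library 18. Of 8 erythroid markers 7 were measured, 3 of them only through the E17.5 level. The 7 were at least 2-fold lower (32.4% of all genes), 3 of them separated (2.49% of all genes). Hbb-bs, an adult beta globin, stood at 93.4, 612 and 2412 CPM before birth and a median of 2.88 CPM after birth. The macrophage and immune list lay the other way, with C1qb and Cd68 higher (0 to 10.6 and 0.0164 to 1.40 CPM) and Fcer1g lower (1.40 to 0.146 CPM), 3 measured of 8, each through 1 stage alone. Since every E17.5 library holds erythroid RNA, its part in the lower set of genes was not tested. Stage and any difference in collection, amplification or sequencing between the stages cannot be told apart in this design.

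By position, of 666 measured genes on chromosome X, 40.1% were at least 2-fold lower after birth (32.4% of all genes) and 35 (5.26%) were separated and lower (2.49% of all genes), while 18 were separated and higher. The autosomes ranged from 1.38% to 4.17% in the share of separated and lower genes, and from 26.3% to 39.1% (chromosome 3) in the share of 2-fold lower genes. Ccnb3, Taf7l and Tex16, a germ cell gene at 78.4 and 0.243 CPM, lie on X.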

How the data were processed

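Counts per gene in each cell and FPKM (fragments scaled by gene length and depth) were deposited by the authors. The submitters' processing notes name STAR 2.7.10b, HTSeq 0.13.5, RSEM 1.3.3 and mm10, with no roles. No source used here gives the annotation version or the strand setting, so overlapping, antisense and near-identical genes may share reads. Of 54750 rows, 92 were spike-ins and were left out of totals. Counts were scaled to CPM and summed per stage with Python 3.11.15 and pandas 2.3.3. Pairs of libraries with a median chi-square per gene under 1.5 were counted as 1 cell, which made 293 cells of 317 P2.5 libraries. Scaling factors came from edgeR 4.0.16 (TMM) and DESeq2 1.42.0 (median-of-ratios), and the scripts were tested on simulated data. Reads carry no molecular identifiers, so intervals and limits cover counting error only.

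The members and gene lists were chosen with earlier results of these data known. Genes named by rule were the 15 highest and 15 lowest separated log2 ratios among genes detected in 90% of cells, and at 20 CPM or more, in their higher stage (unnamed models, pseudogenes and mitochondrial genes left out), up to 2 genes per list end with at least 5 CPM and a 2-fold difference, the 8 highest mean FPKM genes per stage, and Nlrp5, Zp1, Tbpl2, Stra8, Ddx4 and Dazl. Other genes named were chosen after their values were seen. Alternatives covered the E17.5 libraries used, each left out in turn, scaling, pseudocount, CPM minimum, pairing of libraries, and the separation share. Gene positions and types came from GENCODE M21, matched by symbol and not the authors' annotation, and promoter windows from RefSeq (GRCm38.p6).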

Additional observations from a re-analysis of the deposited data

Results flagged for a closer look

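In the 10 E17.5 libraries, the gap between the highest or lowest library and its nearest neighbour was taken as a share of the whole log2 range. It passed Dixon's 95% value of 0.466 in 28 genes and lists, 19.3% of those looked at. For independent values with a normal spread, chance gives about 1 in 20. Most of these genes were chosen by their values, the lists share genes with them, and several stood near 0 in most libraries. That rate is therefore no yardstick here. In Nlrp5, Musk, Oas1c, Th, Sycp2l and Mos only 1 of the 10 libraries held a count (1 to 5 counts), so their value of 1 follows from that and the chance rate does not apply to them. Library 11 was highest in Lhx8 (0.484) and was the only one above the rest in Musk, Oas1c and Mos (each 1). Library 22 was highest in Nlrp5 (1), Swsap1 (0.62) and Trp63 (0.616), library 20 in Th (1), library 18 in Sycp2l (1) and library 12 in the stroma gene Dcn (0.843).

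Library 17 was highest in Dppa3 (0.544), Tet1 (0.647), Cbx2 (0.595), Prdm1 (0.466), Utf1 (0.621) and the pluripotency list (0.486). It was lowest in 4930447C04Rik (0.507), Sycp2 (0.487) and Ulk2 (0.598). Library 19 was highest in Zfp57 (0.559), Setd1b (0.65), Gja1 (0.597) and the egg coat list (0.728), and lowest in Rictor (0.525) and the KIT and PI3K list (0.52). Low values set apart library 18 in Ddx4 (0.468), library 21 in Rps24 (0.527) and library 12 in the oocyte transcription factor list (0.625).

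In E17.5 libraries 1 to 10, which were not compared, the sum held 1.833 CPM of Padi6 (0 in the 10 compared), 5559 CPM of the mast cell protease gene Cma1 (3.29) and 165.6 CPM of Nobox (9.015).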

How the results depend on the processing

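No paired analysis was possible because the library numbers only name cells and no test was made. The cause of each change below was not tested. Of measured genes, 3.53% were separated and higher after birth (P2.5) and 2.49% lower. These shares were 1.43% and 0.718% with all 22 E17.5 libraries, 1.66% and 1.22% with no CPM minimum (which adds genes to the denominator), 12.02% and 0.873% with spike-in scaling, and 1.71% and 0.800% without libraries 8, 10, 15 and 16, a set chosen after seeing the data. Also chosen so were the 10 libraries without 18 and 19 (4.20% and 2.997%) and libraries 1 to 10 (2.79% and 2.97%). Separation by 90% of cells gave 4.54% lower, and by 100% gave 0.850% higher and 0.212% lower. Leaving out 1 E17.5 library gave 4534 to 4725 genes 2-fold higher, 5319 to 5486 lower, 3.68% to 3.98% separated higher, 2.49% to 3.13% separated lower and a median of −0.20 to −0.15. The median of all genes was 0.24 with TMM, 0.20 with median-of-ratios and 2.23 with spike-in scaling, which put 12830 genes 2-fold higher and 663 lower.

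Log2 ratios that turned positive with spike-in scaling were Mfge8 0.73, Taf4b 0.38, Fbxo5 1.35, Rictor 0.82, Pik3ca 1.10, Tet1 0.46, Scml2 0.31, Tdrd7 0.55, Mybl1 0.59, Utf1 0.14, Slc16a1 0.46, Ndufs1 1.29, Acaca 0.30, Rps10 0.27, mt-Rnr2 1.36, Ddx4 1.15, Krt18 0.30, Krt8 0.51 and Dazl 1.36. Tet1 was 0.12 with FPKM, and with 1 library left out Tet1 ranged from −2.22 (library 20) to 0.73 (library 17) and Utf1 from −2.53 to 0.55 (the same libraries). Against libraries 1 to 10 the values were Fbxo5 0.25, Tet1 2.12, Nanos3 0.37, Utf1 1.67, Atf3 2.98, Rpl3l 1.19, Rps10 1.81, Amhr2 2.00, Kitl 2.61, Col3a1 3.94, Krt18 1.96 and Krt8 2.38. Srgn, at 4.07 in the 10 libraries, was −2.83 with all 22 libraries, −3.95 against libraries 1 to 10 and −0.19 without 8, 10, 15 and 16. Relative to all genes, the immune list, at 2.08 in the 10 libraries, was −2.90, −0.17 (libraries 11 to 22), −5.63 (1 to 10) and −1.61 (without 8, 10, 15 and 16), the mast cell list 0.23 with a minimum of 5 CPM, and the granulosa list 1.51 against libraries 1 to 10.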

Other observations

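Outside the lists, several genes chosen after their values were seen differed strongly. Ckb, the brain-type creatine kinase, stood at 3.70 CPM before birth (E17.5) and 1264 CPM after birth (P2.5), and Rab3d, a GTPase of secretory vesicles, at 2.45 and 629 CPM. Ttn, the giant muscle protein titin, was at 6.65 and 492.7 CPM. Lower after birth were Igf2, an imprinted fetal growth factor (48.02 and 0.188 CPM), Mycn, a MYC family factor (28.3 and 0.0912 CPM), Odc1, the first enzyme of polyamine synthesis (473 and 65.6 CPM), and H2-D1, a class I histocompatibility gene (378 and 7.94 CPM). Gata1, an erythroid and mast cell factor, was at 44.8 and 0.985 CPM, beside the erythroid markers of every E17.5 library, whose part in it was not tested.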
